A study of Gallus gallus with 12 samples.

Results

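The subject is the response that chicken macrophages had in common 48 h after contact with 3 species of Eimeria, measured as the change at 48 h against unstimulated cells. The members are the 2238 genes with a single symbol and a value on all 12 arrays, out of 2253 named genes on the array. They were tested together with 1462 unnamed spots, 3700 features of 7905 in all. The cells were HTC cells, an established chicken macrophage cell line, and Eimeria are intracellular protozoa that cause coccidiosis, an intestinal disease of poultry. Polyadenylated RNA of cells given one of the 3 parasites, E. tenella, E. maxima and E. acervulina, for 48 h, 18 h or 4 h, and of unstimulated cells, was compared on arrays that hold an Alexa555 and an Alexa647 sample each. For each species 4 arrays linked the 4 RNA samples in a ring, and 1 of them set the 48 h sample directly against the unstimulated one. The labels give neither parasite stage nor dose.

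All groups share the same cell line, with 1 RNA sample for each species at each time, so the 3 species serve as the replicates of a time (n = 3). Separate starts of the cultures are not stated in the labels, so the p-values cover only the spread among these samples, which may be technical. Nor is it stated whether the unstimulated RNA, which bears one name in all loops, was 1 sample or 3. No unstimulated cells kept for 48 h are named, so the effect of stimulation and that of 48 h in culture cannot be told apart. Log ratios carry no level, so the presence of macrophage markers could not be checked, only their change. In cultures, fewer cells of a type and less RNA per cell cannot be told apart.

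Every value below is a log2 change, 48 h minus unstimulated, in which 1 is a 2-fold difference. Base and direction rest on a likely reading. The base is taken as 2, and the ratio is taken as Alexa555 over Alexa647 because the sample titles name the Alexa555 RNA first. Under the other reading every sign turns and "rose" and "fell" swap, while sizes, total counts and tests stay.

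Macrophages sense microbes through Toll-like receptors and answer with cytokines, lipid mediators and reactive oxygen made by the phagocyte oxidase. Activated or lipid-loaded macrophages also remodel their metabolism, in part through the oxygen-regulated factor HIF-1 and through fatty acid binding proteins. Many macrophages leave the cell cycle as they respond. How far such genes moved alike after contact with the 3 parasites was the question of the comparison.

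By 48 h, FABP4, which carries fatty acids in macrophages and adipocytes, HIF1A and MPST, which makes hydrogen sulfide, were higher with all 3 species. TLR2A, a Toll-like receptor 2 gene, PCNA, the sliding clamp of DNA polymerase, ALOX5AP, needed for leukotriene synthesis, and DBI, which carries acyl-CoA, were lower. In all, 82 of the 2238 genes passed the threshold, which was an adjusted p under 0.05 (limma with Benjamini-Hochberg adjustment over all 3700 features). Of these, 37 rose and 45 fell. The genes' share of 3.66% stood beside 3.59% of all features, 1.65% beside 1.73% for the rises and 2.01% beside 1.86% for the falls. All features include the named genes themselves. Of the unnamed spots alone 3.49% passed, so named genes were called at about the same rate. The spots of a named gene were averaged, whereas each unnamed spot was taken alone. The counts within gene lists below are small and were not tested against these shares. Centring every array turned the split over all features to 76 higher and 47 lower, against 64 and 69 as deposited. The lowest adjusted p of any member was 0.0218.

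These calls rest on all 3 species and on the unstimulated RNA being 3 samples. Without E. maxima or without E. tenella limma called none of the 82 genes, and without E. acervulina it called TLR2A alone. If the unstimulated RNA was 1 sample it called 0 features. No gene of the 82 changed sign in any of these fits, and none could. All 82 had one sign in all 3 species, and taking the unstimulated RNA as 1 sample leaves the changes as they were.

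Of the 82, 9 changed by at least 2-fold on average, 5 up and 4 down, and none did so in every species. The median size of their mean change was 0.73 and the smallest 0.38. Their median SD over species was 0.20, the same as for all 2238 genes. All 82 had one sign in all 3 species, as had 48.3% of the members and 46.5% of all features. The 82 were chosen on the mean of these same values, so their agreement was largely built in and is no separate support. Over all members, 1218 mean changes were negative and 1020 positive. E. maxima gave the largest change of the 3 in 50 of the 82, E. tenella in 21 and E. acervulina in 11. The same order held over all members, at 1067, 709 and 462. The error of 1 array was estimated from the sum of log ratios round each loop, which also holds dye effects of single genes. It was highest in the E. maxima loop too, at 0.34 against 0.27 for both others.

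**Figure D1:**
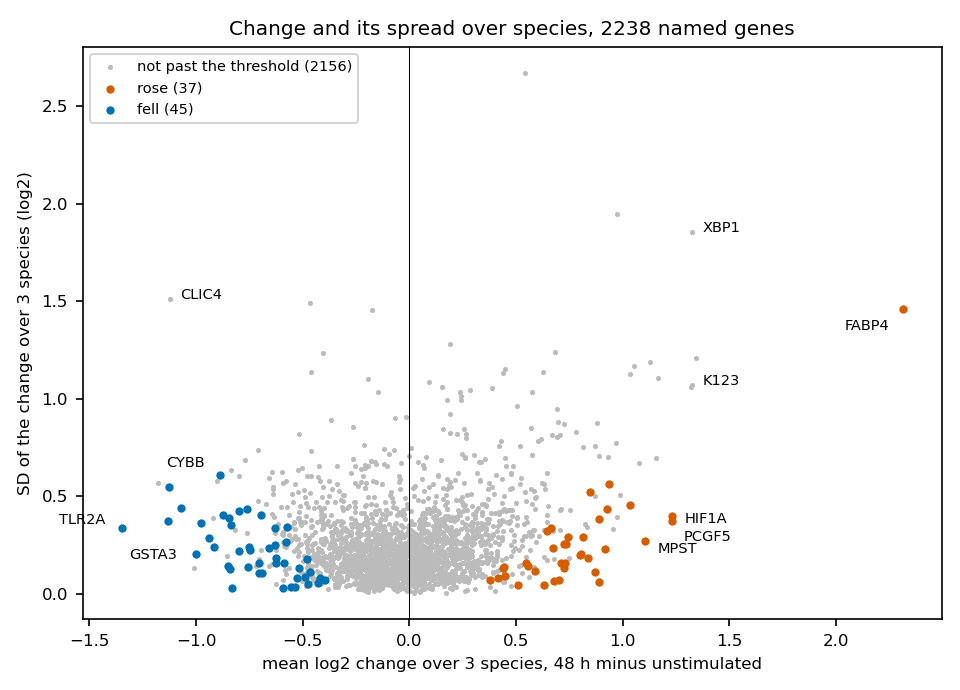
Mean log2 change over 3 species, 48 h minus unstimulated (horizontal), against its SD over species (vertical) for 2238 named genes. The 37 genes that rose and 45 that fell lie mostly at an SD under 0.6, and FABP4 stands apart with a mean of 2.31 and an SD of 1.46.

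Genes of lipid handling moved in both directions. FABP4 changed by 0.77 with E. tenella, 3.66 with E. maxima and 2.51 with E. acervulina, a mean of 2.31 ± 1.46 (SD, n = 3). Its p-value does not measure that SD alone, because the fit takes the error of a gene from all 4 times. The SD of FABP4 over species was 0.61 at 4 h and 0.33 at 18 h. FABP4 was above its unstimulated level in all 3 species and least so with E. tenella, where it had stood at 2.04 at 4 h and 2.16 at 18 h. FABP5, a related carrier, rose by 0.59 ± 0.11. CROT, a peroxisomal enzyme that moves medium-chain acyl groups onto carnitine, changed by 0.70, 1.33 and 0.63 in the E. tenella, E. maxima and E. acervulina loops. DBI changed by -0.97, -1.55 and -0.68 in that order, and its mean of -1.07 ± 0.44 was among the largest falls. Of 21 lipid genes measured, these 3 rose and DBI fell, beside 1.73% and 1.86% of all features. The median of the list was 0.08, beside -0.03 for all members (limma with Benjamini-Hochberg adjustment, adjusted p from 0.025 for DBI to 0.039 for CROT).

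HIF1A, the oxygen-regulated subunit of HIF-1, changed by 1.27 with E. tenella, 1.61 with E. maxima and 0.82 with E. acervulina. Its mean was 1.23 ± 0.40 (SD, n = 3), with limma adjusted p = 0.0225 after Benjamini-Hochberg adjustment. Both clones of the gene on the array were higher, by 0.89 and 1.54. HIF1A was the one of 23 glycolysis and oxygen sensing genes that passed. Of that list 17 genes had negative changes, with a median of -0.25, beside 1218 of all 2238 members. Its member with the next largest change was GBE1, the glycogen branching enzyme, at -0.90 ± 0.58, which did not pass (limma with Benjamini-Hochberg adjustment, adjusted p = 0.0837).

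Among 18 genes of sulfur and redox metabolism, MPST rose and 3 others fell, beside 1.73% and 1.86% of all features. MPST changed by 0.96, 1.42 and 0.93 in the E. tenella, E. maxima and E. acervulina loops, and was 1 of 2 members with the lowest adjusted p, 0.0218 (limma with Benjamini-Hochberg adjustment). GSTA3, a glutathione transferase, changed by -0.91, -1.23 and -0.86, with an SD of 0.20, the same as the median SD over all members. PRDX1, a peroxide-reducing peroxiredoxin, changed by -0.74, -0.99 and -0.79. GSTO2, an omega class glutathione transferase, changed by -0.28, -0.95 and -0.50. The median over the 18 genes of this list was 0.01.

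The falls included genes by which macrophages sense microbes and make inflammatory mediators. TLR2A changed by -1.54 with both E. tenella and E. maxima and by -0.96 with E. acervulina, the largest mean fall at -1.35 ± 0.34 (SD, n = 3; limma with Benjamini-Hochberg adjustment, adjusted p = 0.0252). ALOX5AP changed by -1.24, -1.61 and -0.53 in the same order, and its 2 clones averaged -1.19 and -1.09. CKLF, a chemokine-like factor, changed by -1.39, -0.85 and -0.70. CYBB, the subunit of the phagocyte oxidase that makes superoxide, changed by -1.08, -1.38 and -0.20. The CYBB fall was thus small with E. acervulina, and its 2 clones differed in size, at -1.29 and -0.29. The SD of CYBB over species was 0.61 at 48 h, against 0.37 at 4 h and 0.47 at 18 h, and all of these times enter its p-value.

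TLR2A was the one gene to pass of 24 in Toll-like receptor and NF-kB signalling, CKLF the one of 22 cytokines and chemokines, ALOX5AP the one of 8 eicosanoid genes, and CYBB the one of 7 oxidase and nitric oxide genes. List medians were -0.06, 0.00, 0.20 and -0.03. Another member of each list, the one with the largest change besides these, did not pass, and in the cytokine and chemokine list its change was larger than that of CKLF. TNIP3, an inhibitor of NF-kB signalling, averaged -1.18 ± 0.57. K123, counted among the cytokines and chemokines, averaged 1.32 ± 1.07, with 2.54 with E. tenella, 0.92 with E. maxima and 0.52 with E. acervulina. HPGDS, a prostaglandin D synthase, averaged 0.83 ± 0.34, and the nitric oxide synthase gene NOS2 0.57 ± 0.85 (limma with Benjamini-Hochberg adjustment, adjusted p from 0.0835 for TNIP3 to 0.368 for NOS2).

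Of the 22 cytokine receptor and JAK-STAT genes and of the 22 interferon response genes none passed (limma with Benjamini-Hochberg adjustment). CSF1R, the receptor for the macrophage growth factor CSF1, averaged -0.51 ± 0.25, and IL1R2, the interleukin-1 decoy receptor, -0.48 ± 0.60. IRF8, a transcription factor of myeloid cells, averaged -0.86 ± 0.19 and IRF4 -0.47 ± 0.15. IRF8 had similar values in each loop, -1.02 with E. tenella, -0.65 with E. maxima and -0.89 with E. acervulina, and missed the threshold (limma with Benjamini-Hochberg adjustment, adjusted p = 0.0699). Medians of these lists were -0.07 and -0.10.

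2 of 13 antigen presentation genes fell, beside 1.86% of all features. IFI30, a lysosomal thiol reductase that helps unfold antigens, changed by -0.70 ± 0.16, and DMA, which loads peptides onto class II molecules, by -0.48 ± 0.18 (SD, n = 3 each). Among 41 lysosome genes TMEM106B, a lysosomal membrane protein, rose by 0.93 ± 0.43, while LAPTM5, a lysosomal membrane protein of leukocytes, changed by -1.29, -0.68 and -0.57 in the E. tenella, E. maxima and E. acervulina loops. The lysosome median was -0.02. LAPTM5 and TLR2A were also the 2 of 27 macrophage surface and leukocyte membrane genes that fell. 18 of those 27 had negative changes, with a median of -0.14, beside 1218 of all 2238 members.

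**Figure D2:**
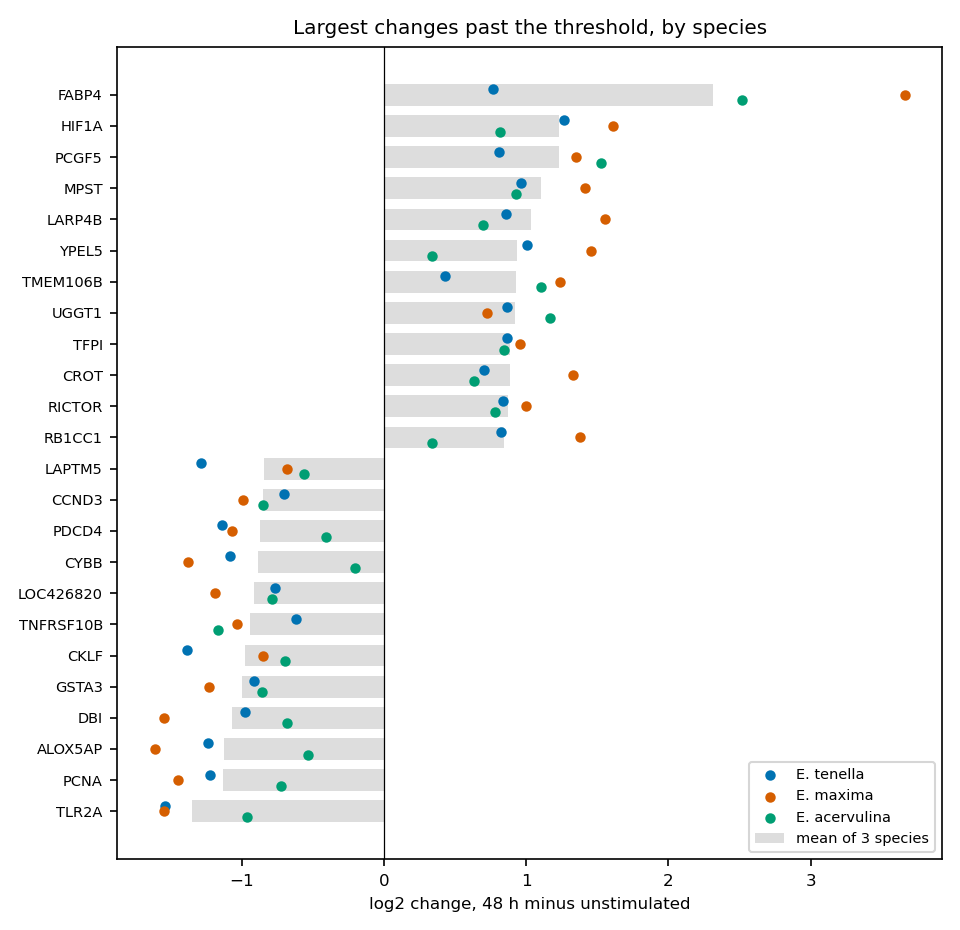
Log2 change, 48 h minus unstimulated (horizontal), for the 12 largest rises and 12 largest falls past the threshold. Coloured points are the 3 species and grey bars their mean, starting at 0, and all 3 points of a gene lie on one side of 0.

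Cell cycle and DNA replication genes that passed all fell. PCNA changed by -1.22 with E. tenella, -1.45 with E. maxima and -0.72 with E. acervulina, a mean of -1.13 ± 0.37 (SD, n = 3). CCND3, the cyclin D3 gene, changed by -0.70, -0.99 and -0.85 in that order. SMC3, a cohesin subunit, was lower by a small amount, at -0.39 ± 0.07. The 4 DNA replication genes had a median of -0.59, of which TK1, a thymidine kinase, at -0.80 ± 0.61, did not pass. CCND3 and SMC3 were the 2 of 20 cyclin and mitosis genes that fell, beside 1.86% of all features. The median of that list was 0.01. Adjusted p ran from 0.0258 for PCNA and CCND3 to 0.0493 for SMC3 (limma with Benjamini-Hochberg adjustment).

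3 of 20 apoptosis genes fell and none rose, beside 1.86% and 1.73% of all features. TNFRSF10B, a death receptor, changed by -0.62, -1.03 and -1.17 in the E. tenella, E. maxima and E. acervulina loops. PDCD4, a repressor of translation, changed by -1.14, -1.07 and -0.41. CASP8, the caspase that death receptors engage, changed by -0.57, -0.51 and -0.53, with an SD of 0.03. The list also held 11 genes with positive changes, and its median was 0.04.

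Actin cytoskeleton and oxidative phosphorylation genes had mostly negative changes, with few members past the threshold, and 1.86% of all features fell. Of 42 actin genes, 37 had negative changes, beside 1218 of all 2238 members, and the median was -0.21, beside -0.03 for all members. ARPC4 of the Arp2/3 complex changed by -0.75 ± 0.23 and the myosin light chain gene MYL12A by -0.42 ± 0.08, and both fell. The list median was -0.28 with E. tenella, -0.13 with E. maxima and -0.20 with E. acervulina, and -0.17 with arrays centred. Of 29 oxidative phosphorylation genes, 25 had negative changes, with a median of -0.18, or -0.14 with arrays centred. ATP5L of the ATP synthase and SDHD of complex II fell, at -0.70 ± 0.40 and -0.63 ± 0.25. MRPL35 and MRPL33 of the mitochondrial ribosome, which belong to neither list, also fell, at -0.71 ± 0.11 and -0.49 ± 0.09.

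None of 54 cytosolic ribosomal protein genes passed at 48 h by limma with Benjamini-Hochberg adjustment. Their median was -0.03 as deposited and 0.01 with arrays centred, and the members lay between -0.37 for RPL38 and 0.21. RPL22 stood at -0.33 ± 0.19. None of 34 proteasome and ubiquitin genes passed either, with a median of 0.02. UBE2A, a ubiquitin-conjugating enzyme, averaged -0.41 ± 0.23 and PSMC5, an ATPase of the proteasome, -0.35 ± 0.36.

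**Figure D3:**
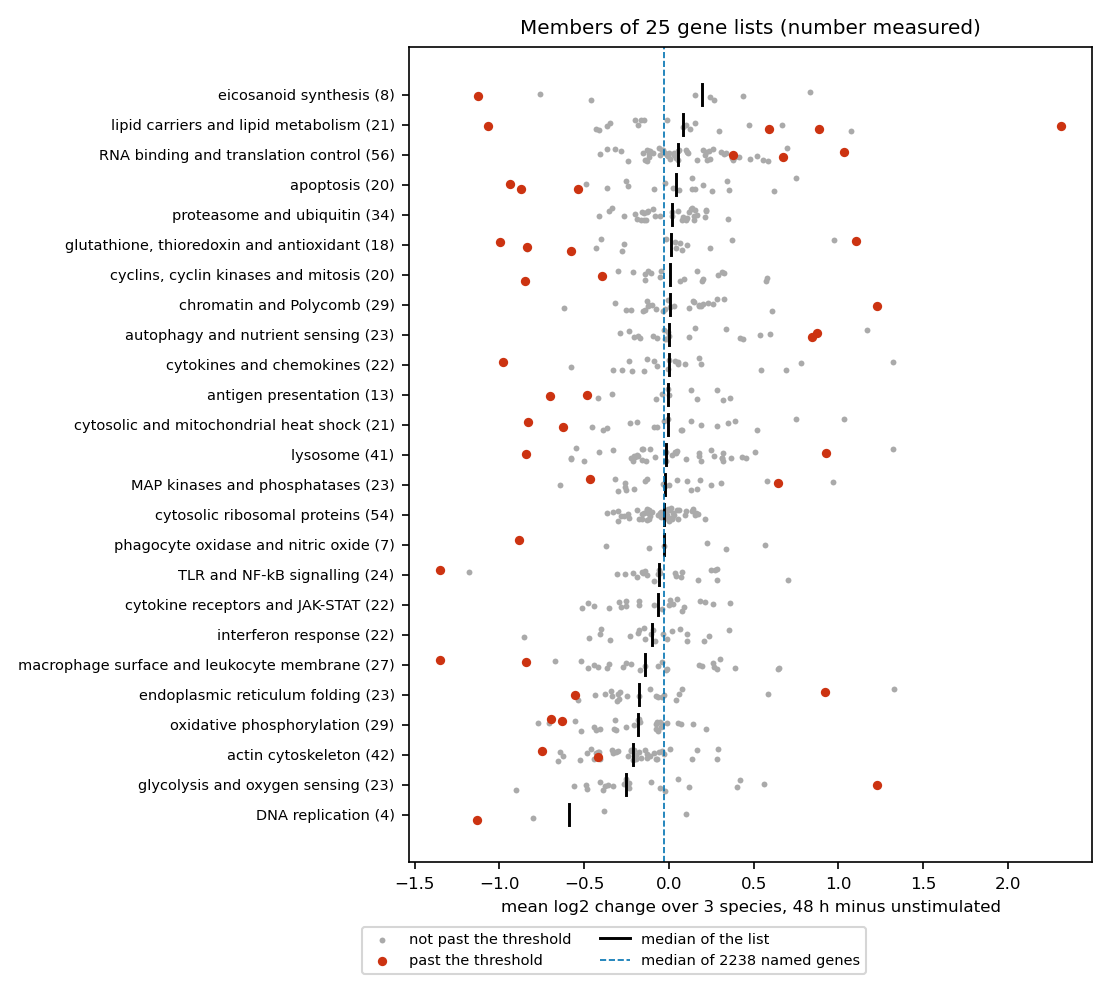
Mean log2 change over 3 species, 48 h minus unstimulated, of every measured member of 25 gene lists, with the number measured in brackets. Red points passed the threshold, black bars are list medians and the dashed line is the median of all 2238 genes, -0.03; the actin and oxidative phosphorylation medians are -0.21 and -0.18.

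Protein folding genes moved in both directions. HSP90AB1, a cytosolic chaperone of the HSP90 family, changed by -0.80, -0.84 and -0.85 in the E. tenella, E. maxima and E. acervulina loops. These were the closest values among the genes past the threshold, with an SD of 0.03. PPIA, cyclophilin A, fell by 0.62 on average, and the 21 heat shock genes had a median of -0.01. In the endoplasmic reticulum list of 23 genes, UGGT1, which senses misfolded glycoproteins, changed by 0.87, 0.72 and 1.17, and DDOST, a subunit of the enzyme that attaches N-glycans, by -0.58, -0.57 and -0.52. 17 of those 23 genes had negative changes, with a median of -0.17, beside 1218 of all 2238 members.

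In the lists of autophagy and nutrient sensing, of RNA binding and translation control, and of chromatin and Polycomb, the members that passed all rose. They were few in each list, and 1.73% of all features rose. Genes of related function outside these lists also fell, among them PDCD4 above and HMGN4 and SMNDC1 below. RICTOR, which defines the mTORC2 complex, changed by 0.84 with E. tenella, 1.0 with E. maxima and 0.78 with E. acervulina. RB1CC1, a scaffold of the kinase complex that starts autophagy, changed by 0.82, 1.38 and 0.34 in that order. They were the 2 of 23 autophagy and nutrient sensing genes past the threshold, in a list whose median was 0.00. LARP4B, an RNA-binding protein that favours mRNA stability, changed by 0.86, 1.55 and 0.70. PUM2, a repressor of mRNA translation, rose by 0.67 ± 0.23 and the stress granule gene G3BP2 by 0.38 ± 0.07. Of the 56 genes in that list these 3 passed, and 35 had positive changes, beside 1020 of all 2238 members. PCGF5, a Polycomb ring finger gene, changed by 0.81, 1.35 and 1.53, and was the one of 29 chromatin genes to pass. The chromatin list had a median of 0.01, and HMGB1, an abundant chromatin protein, averaged -0.62 ± 0.36 without passing.

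Among 23 MAP kinase and phosphatase genes, BRAF, a kinase upstream of ERK, rose by 0.64 ± 0.32, and DUSP6, a phosphatase that switches ERK off, changed by -0.47 ± 0.11. Both passed, in opposite directions. The list median was -0.02.

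Other rises belonged to no list. TFPI, an inhibitor of blood coagulation, rose by 0.89 ± 0.06, and YPEL5 changed by 1.0, 1.46 and 0.34 in the E. tenella, E. maxima and E. acervulina loops. Transport genes among them were ABCC1, a drug and leukotriene efflux pump, at 0.73 ± 0.25, SLC4A7, a bicarbonate transporter, at 0.71 ± 0.16, SLC38A2, an amino acid transporter, at 0.41 ± 0.08, and IPO5, a nuclear import receptor, at 0.73 ± 0.16. Regulators of transcription among them were MLLT10 at 0.81 ± 0.20, NRIP1, a corepressor of nuclear receptors, at 0.80 ± 0.20, ZEB1 at 0.68 ± 0.07 and MED15 of the Mediator complex at 0.54 ± 0.16. Membrane traffic genes among them were STX12, an endosomal syntaxin, at 0.74 ± 0.29, CLEC16A at 0.70 ± 0.07 and GAPVD1, which acts on the endosomal GTPase Rab5, at 0.66 ± 0.34. DNAJC5, IQGAP3, RBBP6, NAMPTP1, C1orf21, GDA, KIAA1109, MGAT3, OSBPL3 and SLMAP rose by between 0.44 and 0.84.

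Falls outside the lists included nuclear proteins. HMGN4, which binds nucleosomes, changed by -0.84 ± 0.35, PTMA, prothymosin alpha, by -0.80 ± 0.22, and the splicing factor SMNDC1 by -0.69 ± 0.11. ANXA5, which binds phosphatidylserine, changed by -1.26 with E. tenella, -0.51 with E. maxima and -0.52 with E. acervulina. EML4, a microtubule-binding protein, changed by -0.32, -1.14 and -0.93, so it was E. tenella that gave the smallest fall. LOC426820 averaged -0.91 ± 0.24. RCSD1, PTP4A2, PRPS1L1, SKAP2, PID1, TFDP3, LGALSL2, NAA20, NUP210L, SRSF7L, CALM2, which encodes calmodulin, and MEMO1 fell, with mean changes between -0.76 and -0.43.

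Markers of cell types were set beside these changes. Of 10 macrophage markers measured, CYBB fell, none rose and 7 had negative changes, with a median of -0.19, beside 1218 negative among all 2238 members. Of 12 measured markers in all of T cells, B cells, heterophils, erythroid cells, thrombocytes, fibroblasts and epithelium none passed (limma with Benjamini-Hochberg adjustment). The largest mean change among them was that of CD3D, a T cell marker, at -0.92 ± 0.39, against -0.89 for CYBB. Of the 3 T cell markers measured, 2 had negative changes and 1 a positive change. The part of cell makeup in the results was not tested.

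The change at 48 h joins 2 readings of each loop that share no array, the array of 48 h against unstimulated RNA, which takes a weight of 0.75, and the path through 18 h and 4 h, which takes 0.25. Over the mean of the species both readings had the sign of the call for all 82 genes. The direct array had that sign in every one of the 3 species for 81 genes, and the indirect path of 3 arrays for 67. The genes were chosen on the weighted sum of both readings. Agreement, of the direct array above all, was thus largely built in and is no separate support. Such counts were not made over all features. MPST averaged 1.24 on the direct arrays and 0.68 by the path, PCGF5 1.42 and 0.66, and FABP5 0.74 and 0.13. By the path MPST read -0.15 with E. tenella, 2.58 with E. maxima and -0.39 with E. acervulina. FABP5 read -0.29, 1.02 and -0.34 in that order. For both genes the path thus ran against the call with E. tenella and E. acervulina. A constant dye effect of a gene enters the 2 readings with opposite signs and cancels in the loop estimate. The dye order of the E. maxima loop was the reverse of that of the other loops. The part of dye in these differences was not tested. TLR2A, at -1.30 and -1.49, and PCNA, at -1.13 by both, gave nearly the same value by both.

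TFPI was the gene whose direct arrays did not all share the sign of the call. On the direct array it read 1.70 with E. tenella, -0.06 with E. maxima and 1.38 with E. acervulina, and by the path -1.63, 4.01 and -0.77. The 48 h RNA carried Alexa555 on the direct array of E. tenella and E. acervulina and Alexa647 on that of E. maxima, and a constant dye effect cancels in the loop estimate. That estimate was 0.87, 0.96 and 0.84 in the 3 species.

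**Figure D4:**
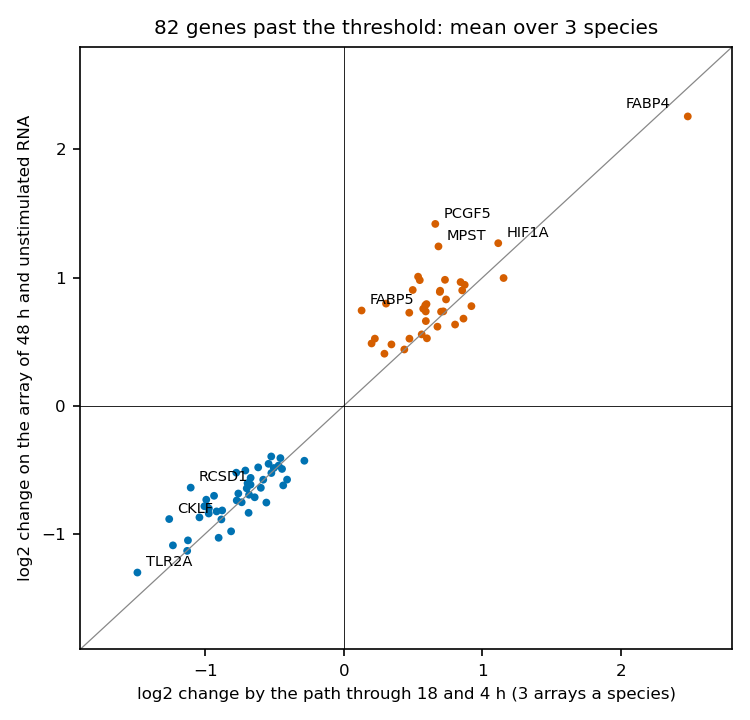
Mean log2 change over 3 species, 48 h minus unstimulated, for the 82 genes past the threshold, by the path through 18 and 4 h (horizontal) and on the array of 48 h and unstimulated RNA (vertical). The line marks equal values; all points lie in the lower left or upper right quadrant, with FABP5 at 0.13 and 0.74.

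17 of the 82 genes were represented by several clones, and in none did the clones differ in sign. The spread between clones was widest for CYBB, and SLC4A7 ranged from 0.35 to 1.12 over its 3 clones and LAPTM5 from -1.15 to -0.54. The other 65 genes rest on a single clone each.

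The course of the genes before 48 h differed. Changes at 4, 18 and 48 h share the unstimulated RNA, so their likeness is no separate result. In 48 h minus 4 h the level of that RNA cancels, although the arrays that hold it enter the loop estimate. No array set 48 h against 4 h directly. The fit still gives that difference the standard error of 48 h minus unstimulated, which may favour its calls. For that contrast, which was added after the data were seen and shares the 48 h RNA and the arrays with the choice of genes, limma with Benjamini-Hochberg adjustment called 264 features, or 7.14%. Of the 82 genes it called 20, 12 that rose at 48 h and were also higher at 48 h than at 4 h, and 8 that fell and were also lower. None ran against its 48 h change. The groups below were split by that contrast, so the difference in their 4 h medians follows in large part from the split.

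The 12 rises that were higher at 48 h than at 4 h had a median change of 0.09 at 4 h, 0.35 at 18 h and 0.73 at 48 h. HIF1A averaged 0.15 at 4 h, 1.07 at 18 h and 1.23 at 48 h, and MPST 0.14, 0.43 and 1.10. RICTOR stood at 0.07, 0.43 and 0.87, and YPEL5 at -0.03, 0.29 and 0.93. HIF1A was thus near its 48 h mean by 18 h, whereas MPST was well short of it. For all of these genes the 4 h mean joins values of both signs. At 4 h HIF1A stood at 0.50 with E. tenella, 0.35 with E. maxima and -0.40 with E. acervulina. YPEL5 stood at -0.05, 0.36 and -0.40 in that order. The others were IPO5, NRIP1, GAPVD1, SLC4A7, NAMPTP1, ABCC1, MED15 and MGAT3, higher at 48 h than at 4 h by between 0.34 for MGAT3 and 0.80 for IPO5. SLC4A7, at 0.67 at 18 h and 0.71 at 48 h, was near its 48 h mean by 18 h. So was MGAT3, at 0.39 and 0.45.

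The 8 falls that were lower at 48 h than at 4 h had medians of 0.04 at 4 h, -0.26 at 18 h and -0.72 at 48 h. PCNA averaged 0.18 at 4 h, -0.16 at 18 h and -1.13 at 48 h, a 48 h minus 4 h difference of -1.31 (limma with Benjamini-Hochberg adjustment, adjusted p = 0.0150). HSP90AB1 averaged 0.35, -0.54 and -0.83, a difference of -1.18. At 4 h HSP90AB1 had been at 0.54 with E. tenella, 0.06 with E. maxima and 0.44 with E. acervulina, above the unstimulated level in all 3, and at 18 and 48 h it was below in all 3. SRSF7L had the same shape, at 0.32, -0.19 and -0.52. CASP8 averaged 0.16, -0.06 and -0.54 and CCND3 -0.08, -0.33 and -0.85. At 4 h PCNA differed in sign, at 0.12 with E. tenella, -0.23 with E. maxima and 0.64 with E. acervulina. CASP8 did so too, at 0.21, -0.12 and 0.39. None of the positive means at 4 h passed (limma with Benjamini-Hochberg adjustment, adjusted p from 0.0557 for SRSF7L to 0.575 for PCNA). For HSP90AB1 the 4 h value with E. maxima was well under the estimated error of 1 array in that loop, 0.34, which includes dye effects of genes. PTP4A2, SMNDC1 and NUP210L completed the group.

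The other 62 genes did not differ between 48 h and 4 h past the threshold. In that group the 25 rises had medians of 0.60, 0.64 and 0.73 at 4, 18 and 48 h, and the 37 falls -0.52, -0.42 and -0.70. FABP4 averaged 2.28, 2.47 and 2.31, UGGT1 0.88, 0.91 and 0.92, and LARP4B 1.0, 1.02 and 1.04. TNFRSF10B averaged -1.32, -1.07 and -0.94, PDCD4 -0.90, -0.51 and -0.88, and DBI -0.93, -0.76 and -1.07. CKLF stood at -0.91 at 4 h, -0.06 at 18 h and -0.98 at 48 h, so its mean at 18 h lay near the unstimulated level. A p that misses the threshold does not show that a level stayed the same. Between 48 h and 18 h limma with Benjamini-Hochberg adjustment called 0 features, and 501 had an unadjusted p under 0.05.

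**Figure D5:**
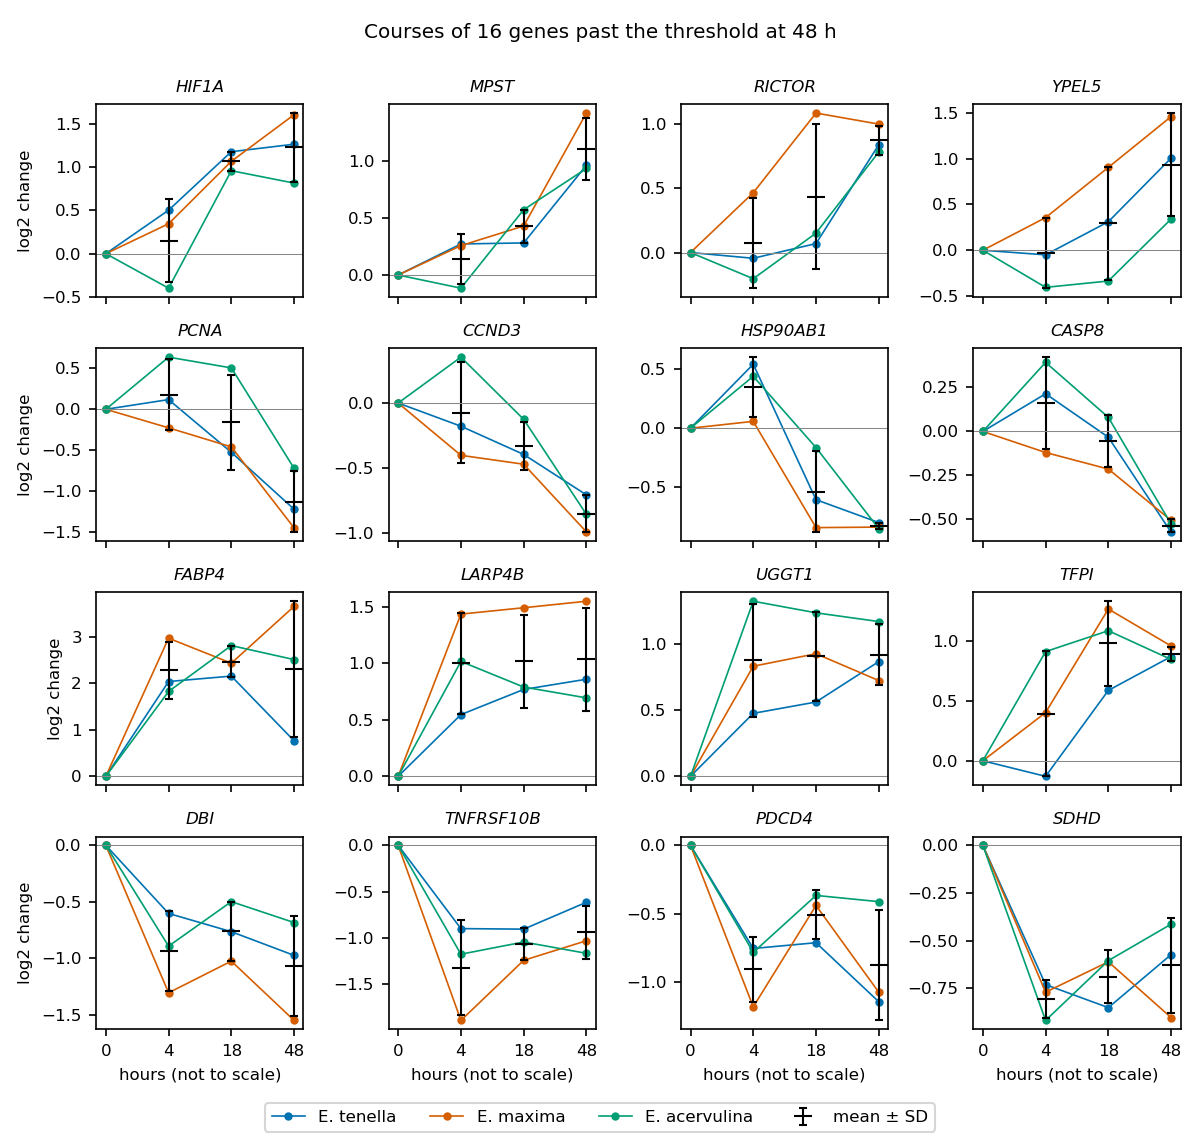
Log2 change against unstimulated RNA (vertical) at 0, 4, 18 and 48 h (horizontal, not to scale) for 16 of the 82 genes, picked after their values were seen. Coloured lines are species and black bars the mean ± SD (n = 3). HIF1A, MPST, RICTOR and YPEL5 lie within 0.15 of 0 on average at 4 h. PCNA, HSP90AB1 and CASP8 are above 0 on average at 4 h, without passing the threshold then, and below 0 at 48 h.

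Large changes were not always shared. 13 genes changed by at least 2-fold on average without passing. For most of them the spread over species was wide, with LBP, described below, as an exception. FABP4, which passed, had a wide spread at 48 h too, with an SD of 1.46. FRMD4B changed by 1.15 with E. tenella, 2.64 with E. maxima and 0.24 with E. acervulina. XBP1, which drives genes of protein secretion under folding stress, changed by -0.04, 3.43 and 0.59. ATP6V0D2, a subunit of the proton pump of lysosomes, changed by 2.47, 1.11 and 0.39. Its E. maxima value joins -0.20 on the direct array and 5.02 by the path through 18 h and 4 h. CSTA, a cystatin that inhibits cathepsins, changed by 2.33, 1.10 and -0.04. SESN1, a stress-induced sestrin, changed by 0.72, 2.43 and 0.36. The high values thus came from E. tenella for K123, ATP6V0D2 and CSTA and from E. maxima for XBP1, SESN1 and FRMD4B, each from 1 RNA sample.

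ZYG11A changed by 0.37, 1.69 and 1.41 in the E. tenella, E. maxima and E. acervulina loops. Its 2 readings differed in sign in each loop, at 0.80, -0.03 and 2.14 on the direct arrays and -0.93, 6.84 and -0.79 by the path. CLIC4, a chloride channel protein, changed by -1.78, 0.61 and -2.20, against the direction of the other 2 with E. maxima. Its direct arrays read -2.59, 0.41 and -3.18, and the path through 18 h and 4 h 0.66, 1.20 and 0.74. The 2 readings of CLIC4 thus conflict for E. tenella and E. acervulina. LBP, the lipopolysaccharide binding protein, had close values of -0.93, -1.16 and -0.95 and missed the threshold (limma with Benjamini-Hochberg adjustment, adjusted p = 0.0577). This fit takes the error of a gene from all 4 times, and the SD of LBP over species was 0.63 at 4 h and 0.71 at 18 h, against 0.13 at 48 h.

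Just outside the threshold lay KIAA1671 at -0.42, ARPC1B at -0.66, PRCP at -0.41, PDRG1 at -0.63, TRAM1L1 at -0.47, HSBP1 at -0.38, CHD7 at 0.61 and CYB5A at 0.55, with adjusted p between 0.0514 and 0.0561 (limma with Benjamini-Hochberg adjustment). Just inside it lay SMC3, PRDX1, GSTO2, PID1 and G3BP2, each with adjusted p = 0.0493. ARPC1B, like ARPC4 a subunit of the Arp2/3 complex, had values of -0.59, -0.82 and -0.55 in the E. tenella, E. maxima and E. acervulina loops.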

How the data were processed

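Per the labels, 12 two-colour arrays compared RNA samples of HTC cells. The authors deposited 1 log2 ratio per spot and array; that the log is base 2 and the ratio Alexa555 over Alexa647 is a likely reading (the direction also rests on an unchecked memory that the study reported IL8L1, a chemokine gene, as induced with E. tenella), and how background was corrected and spots normalized is not stated in the labels. The table held 14718 rows, of which 9066 had a single gene symbol in the platform annotation, and 5.30% to 17.1% of rows were missing on an array. Array medians lay between -0.04 and 0.12, and the number of arrays limits the precision. Rows of a symbol were averaged; only 2462 named rows had a value on all 12 arrays, so a gene's mean can rest on different spots on different arrays.

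RNA levels in each loop were solved by least squares, and the 12 levels were fitted with limma 3.58.1 in R 4.3.3, with a block for species and a factor for time (6 residual degrees of freedom). P-values are two-sided. The fit was tested on simulated data with independent error for each level, so the sharing of arrays between levels was not tested. The 25 gene lists, 8 marker lists and the members were chosen with earlier results of these data known, and list symbols were matched exactly after looser matching gave wrong genes. Named are all genes past the threshold (values per species mostly for the 12 largest each way), the 2 largest members of lists with fewer than 2 calls, the 8 genes nearest outside the threshold, the 10 largest changes each way, and genes of opposite sign at 4 or 18 h. Alternatives were centring or scaling arrays, admitting missing values, row medians, a robust prior, no block, fewer levels or arrays, 1 unstimulated RNA, and leaving out each species. Sequences were not used here.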

Additional observations from a re-analysis of the deposited data

Results flagged for a closer look

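6 genes named above had changes at 48 h of opposite sign in different species. Each species gave 1 RNA sample, and the differences were not tested. CLIC4 stood at -1.78 with E. tenella, 0.61 with E. maxima and -2.20 with E. acervulina. Its negative values rest on the direct arrays, as the path through 18 h and 4 h gave 0.66, 1.20 and 0.74. CSTA stood at 2.33, 1.10 and -0.039 in that order, and XBP1 at -0.040, 3.43 and 0.59. NOS2 stood at 1.51, 0.33 and -0.13. IL1R2 stood at 0.11, -1.09 and -0.46, and PSMC5 at 0.058, -0.59 and -0.52.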

How the results depend on the processing

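The counts of 133 features (64 higher, 69 lower) and 82 named genes were within 1.5 times of these values with arrays centred, arrays scaled, row medians or a robust prior. Admitting features with 3 of 4 arrays per loop, which raised the number tested to 6825, left 37 features (18 higher, 19 lower) and 11 named genes. Direct arrays alone, levels at 0 and 48 h alone, and the unstimulated RNA as 1 sample each left 0 features and 0 named genes by limma with Benjamini-Hochberg adjustment. With direct arrays alone 691 features had an unadjusted limma p under 0.05, and with levels at 0 and 48 h alone 763 had. The first 2 of these fits each have 2 residual degrees of freedom, against 6 in the main fit, and fits without a species also have fewer than 6. The cause of the losses was not tested. Leaving out each species in turn left 0 to 2 features (0 higher, 0 to 2 lower) and 0 to 1 named genes. Without the replicate block (the species), limma called 612 features (246 higher, 366 lower) and 391 named genes; levels of a loop sum to 0 by construction, so that fit overstates its degrees of freedom. None of the 82 genes changed sign under any alternative run. This was fixed beforehand where a species was left out, as all 82 had one sign in every species. So it was with 3 of 4 arrays admitted, a robust prior or no block, which left these changes as they were. Levels at 0 and 48 h alone and 1 unstimulated RNA did so too. Of the 82, 69 passed with arrays centred, 66 with arrays scaled, 73 with row medians and 82 with a robust prior.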
